A study of Rattus norvegicus with 2 samples.

Results

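Glycolysis and its control by oxygen were described in AT6.1, a line of rat prostate cancer cells kept in culture, with 2 Affymetrix arrays. The gene module held 41 listed genes, namely the glucose carriers, the enzymes from hexokinase to lactate dehydrogenase, the lactate transporters, the kinases that restrain pyruvate dehydrogenase, and the hypoxia-inducible factor (HIF) subunits with a set of their other target genes. A gene was taken as measured when at least 1 probe set was annotated to it alone, which held for 40 of the 41 genes among 14218 genes on the arrays. The exception was Pkm, whose annotation was shared with a further gene. Synonyms were followed, so Ca9 and Ca12 were read from probe sets named Car9 and Car12. Where a gene had several probe sets, the one with the highest mean log2 signal represented it and the others served as a check.

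Cells of clone 7 carry pcDNA3 with an Ndrg-1 insert (N-myc downstream regulated gene-1, symbol Ndrg1) and are called the Ndrg-1 clone. Cells of clone 9 received pcDNA3 with no insert and are called the vector clone. Both grew in RPMI with 10% fetal calf serum, and G418 at 0.3 mg/mL kept the plasmid selected in both. Values written as 1 signal against another give the Ndrg-1 clone first. Each group is 1 clone, 1 culture and 1 array, so no p-value or replicate error can be given, and the insert, the clone, the culture and the array cannot be told apart.

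Glycolysis splits glucose into pyruvate in the cytosol, and lactate dehydrogenase then turns pyruvate into lactate, which leaves the cell through proton-linked transporters. When oxygen is short, HIF alpha subunits escape hydroxylation by the prolyl hydroxylases, pair with ARNT and raise transcription of most glycolytic genes together with genes for pH control, mitochondrial turnover, collagen modification and pyruvate dehydrogenase inhibition. Ndrg1 is itself a HIF-responsive gene, and many tumour cell lines run glycolysis at a high rate also in air.

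The unit throughout is the deposited probe set signal, a linear intensity. A log2 ratio is the log2 signal of the Ndrg-1 clone minus that of the vector clone, after a rescaling of 0.0048 on the log2 scale that set the median of the brighter probe sets to 0. The median of all signals, 31.0, served as a floor to which lower signals were raised, so the ratio of a gene under it on 1 array is a bound. In all, 38 of the 40 genes passed the floor, 35 of them in both arrays and 3 in 1 array, where a difference follows from having passed. Egln3 and Ca12 were under it in both. The only error the arrays hold is how far probe sets for one gene disagree, with an SD of 0.23 on the log2 ratio over 2296 genes, which leaves out cultures, clones and arrays. Signals of different probe sets do not rank genes by abundance.

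Ndrg1 had a signal of 1353 with Ndrg-1 and 1062 with vector on its brighter probe set, and 154 and 181 on the dimmer one. The median signals of the arrays were 31.1 and 31.2, and the 3' to 5' signal ratio of the Gapdh control probe sets was 1.05 and 1.03. Of 9 prostate epithelial markers on the arrays, 7 were under the floor in both, among them Epcam, Cdh1 and Krt18, while the mesenchymal filament gene Vim had signals of 4344 and 5798. Of the macrophage and leukocyte markers 3 of 9 were above the floor, and signals summed over all 9 were 503 in the Ndrg-1 clone and 531 in the vector clone. Of the fibroblast and smooth muscle markers, which include Vim, 7 of 12 were above it (sums over all 12 of 7377 and 9297). Of these 7, 4 had a log2 ratio below 0 and 3 above. Col3a1 was lower at 356 against 1038, Col1a1 higher at 167 against 76.9, and Col1a2 was at 2197 against 2061. Of the endothelial markers 3 of 7 were above the floor (sums over all 7 of 303 and 171). These 3 had ratios above 0, among them Eng, at 91.4 with the vector clone under the floor. Ptprc, Pecam1, Vwf and Pdgfra were under the floor in both arrays. The part of these markers in the results below was not tested.

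The module did not move as 1 block. Enzymes of the glycolysis route mostly had lower signals in the Ndrg-1 clone, whereas 8 of the 11 other HIF targets of the module above the floor had higher signals, each by less than 2-fold. Of 28 further HIF targets on a second list, which includes Ndrg1 itself, 15 were above 0 and 13 below, with a median of 0.03. Of the 22 route genes, 16 were below 0 as processed here, and 16 with a lowess trend of ratio on mean signal removed. Quantile normalization put 12 below 0, scaling to the poly-A spikes 19 and scaling to the hybridisation spikes 4. These 2 scalings moved the median gene itself to -0.21 and 0.53. Of the other HIF targets of the module, 6 of 11 were above 0 with the poly-A spikes and 11 of 12 with the hybridisation spikes. Among the 38 genes, 1 was at least 2-fold higher, the lactate transporter Slc16a3, against 1.62% of the 9183 genes above the floor. Likewise 1 was at least 2-fold lower, the lactate dehydrogenase subunit Ldhb, against 1.5% of all genes. Both shares are those of 1 gene in 38 and lie near the background. In all, 21 of the 38 genes had a log2 ratio below 0, against 49.6% of all genes, and the median log2 ratio was -0.15, against 0.0029 for all genes.

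**Figure D1:**
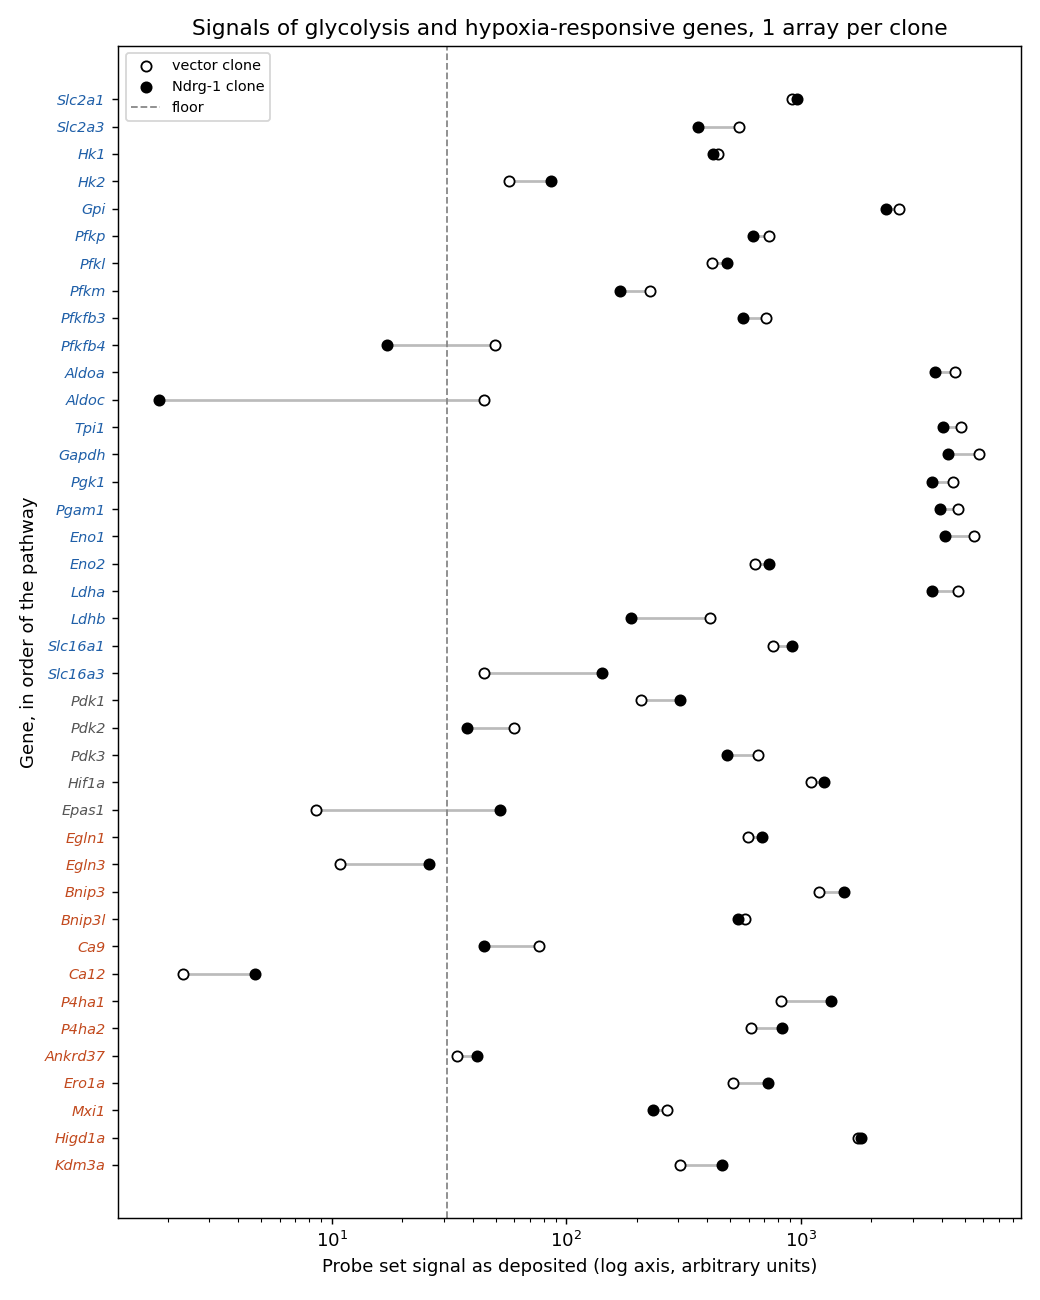
Deposited signal of the representing probe set of each of the 40 genes (log axis, arbitrary units) in the vector clone (open circles) and the Ndrg-1 clone (filled circles), in order of the pathway, with the floor of 31.0 as a dashed line. Names are blue for the glycolysis route, grey for the pyruvate dehydrogenase kinases and HIF alpha subunits and red for other HIF targets. The filled circle lies left of the open one for Aldoa, Tpi1, Gapdh, Pgk1, Pgam1, Eno1 and Ldha, and right of it for Slc16a3, P4ha1 and Kdm3a.

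At the entry of the pathway the carriers and hexokinases differed among themselves. Slc2a1, the broadly expressed glucose carrier, had nearly equal signals of 964 in the Ndrg-1 clone and 919 in the vector clone, a log2 ratio of 0.06. Slc2a3, the high-affinity glucose carrier, was lower in the Ndrg-1 clone at 364 against 547 (log2 ratio -0.59), and its second probe set, at 60.5 against 112, was at -0.90. Hk1, the constitutive hexokinase, was at 422 against 442 (-0.07), with 2 control probe sets for it at -0.30 and, with the vector clone at the floor, 0.10 or more. Hk2, the inducible hexokinase bound to mitochondria, was dim but higher in the Ndrg-1 clone at 86.1 against 57.0 (0.59). The entry steps held 1 gene on either side of 0 by more than 2 SD of the probe set disagreement, which is 0.46 and which 16.9% of all genes exceeded.

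The phosphofructokinase step sets the pace of the pathway. Its platelet-type subunit Pfkp was at 626 with Ndrg-1 against 733 with vector (-0.23), and its muscle-type subunit Pfkm at 170 against 228 (-0.43; second probe set -0.31). The liver-type subunit Pfkl was on the other side, at 485 against 419 (0.21). Pfkfb3, which makes the allosteric activator of phosphofructokinase and is a HIF target, had signals of 568 and 708 (-0.32; second probe set -0.51). Its paralog Pfkfb4 was at 49.9 in the vector clone and under the floor in the Ndrg-1 clone, at least 1.61-fold lower. A floor at the 25th percentile of all signals, 7.66, gave Pfkfb4 a log2 ratio of -1.55.

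From aldolase to lactate dehydrogenase, and at the isomerase Gpi before them, signals were mostly lower in the Ndrg-1 clone. Gpi, Gapdh, Pgk1, Pgam1, Tpi1, Aldoa, Eno1 and Ldha were lower by small amounts, before any correction for signal level. Gpi was at 2302 against 2616 (-0.19) and the aldolase Aldoa at 3747 against 4566 (-0.29). Tpi1, which interconverts the triose phosphates, was at 4061 against 4821 (-0.25). Gapdh, represented by a control probe set because the annotation names it alone only there, was at 4262 against 5783 (-0.45), and its other control probe sets were at -0.47 and -0.41. Pgk1, the first enzyme to return ATP, was at 3620 against 4440 (-0.30; second probe set -0.21), and the mutase Pgam1 at 3924 against 4685 (-0.26). The enolase Eno1 was at 4133 against 5489 (-0.41). Ldha, the subunit that favours lactate formation, was at 3638 against 4660 (-0.36). The minor aldolase Aldoc was at 44.6 in the vector clone and under the floor in the Ndrg-1 clone, at least 1.44-fold lower. Its Ndrg-1 signal of 1.84 was under the lower floor too, which gave a log2 ratio of -2.55 or below, again a bound. Eno2, the neuron-type enolase, was higher at 734 against 638 (0.20).

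These small differences sit where the whole array leaned the same way. Aldoa, Tpi1, Gapdh, Pgk1, Pgam1, Eno1 and Ldha had a mean signal of 3500 or more, a limit chosen after the values were seen. Of all 85 genes at or above that signal, 85 had a log2 ratio below 0, with a median of -0.38, the 10th percentile at -0.48 and the 90th at -0.26. The median of the 7 glycolytic genes was -0.30, and their values ran from -0.45 to -0.25. Gpi, at -0.19, lay among 263 genes with a mean signal from 2000 to 3500 whose median was -0.18. With quantile normalization, which gives both arrays one distribution, the log2 ratios of Aldoa, Tpi1, Pgk1 and Pgam1 turned to 0.08, 0.13, 0.05 and 0.11, and those of Gapdh, Eno1 and Ldha were -0.03, -0.0092 and -0.0064. With a lowess trend removed, all 7 stayed below 0. Gapdh was at -0.19, Eno1 at -0.16, Ldha at -0.13 and Pgk1 at -0.07. Aldoa, Pgam1 and Tpi1 were at -0.06, -0.02 and -0.0090. The highest signal on the Ndrg-1 clone was 4795 and on the vector clone 6446. The share of this lean in the lower signals of the glycolytic enzymes was not tested further.

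**Figure D2:**
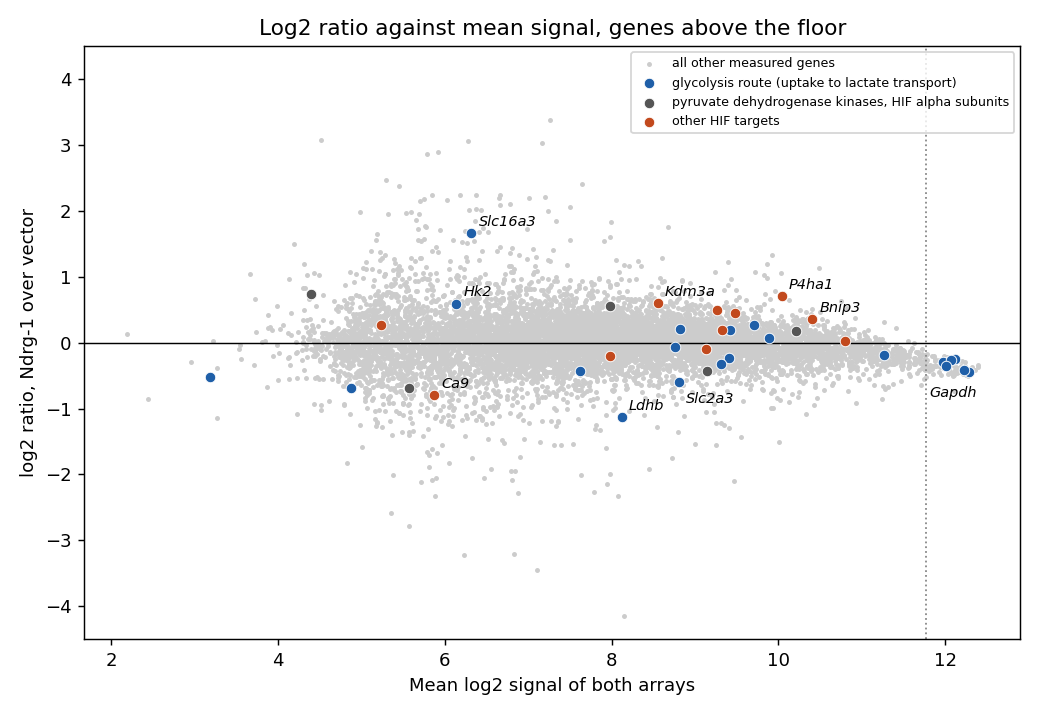
Log2 ratio (Ndrg-1 over vector) against mean log2 signal for the 9183 genes above the floor in at least 1 array (grey), with the glycolysis route in blue, the pyruvate dehydrogenase kinases and HIF alpha subunits in grey-black and other HIF targets in red. The dotted line marks a mean signal of 3500. To its right all 85 genes lie below 0 before quantile normalization, the 7 glycolytic ones between -0.45 and -0.25. P4ha1 and Kdm3a lie above 98.9% and 98.0% of the 3480 genes with a mean signal from 300 to 2000.

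At the exit of the pathway lay both genes that reached 2-fold. Slc16a3, the low-affinity lactate transporter of highly glycolytic cells, had a signal of 142 with Ndrg-1 and 44.6 with vector, 3.17-fold higher (log2 ratio 1.66). It has 1 probe set, was close to the floor in the vector clone and was at 1.38 with a pseudocount of 16. Its log2 ratio exceeded that of 98.7% of the 2348 genes with a mean signal under 100. Slc16a1, the more widely expressed lactate and pyruvate transporter, was at 917 against 761 (0.26). Ldhb, the subunit that favours pyruvate formation, was at 188 against 410, 2.19-fold lower (-1.13), also on 1 probe set, and 98.9% of the 3007 genes with a mean signal from 100 to 300 had a higher ratio. The log2 ratios of Ldha and Ldhb lay 0.77 apart, and with quantile normalization they were -0.0064 and -1.16. Ldha was at 0.18 when scaled to the hybridisation spikes. Of the 5 nearest genes above the floor on either side, 0 reached 2-fold around either exit gene. Those around Slc16a3 ran from -0.55 (Ogfod3) to 0.95 (Narf), with Cybc1 at 0.67 and a median of 0.01. Those around Ldhb ran from -0.18 (Cmas) to 0.37 (Etnk1).

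The promoters of these exit genes are shown because they differ in the HIF core motif, ACGTG or GCGTG. Each sequence is the 250 bases before the RefSeq start (build GRCr8) on the gene's own strand, with every match on either strand in capitals, so the reverse forms CACGT and CACGC are in capitals too. The palindrome CACGTG, the E-box that MYC and USF proteins read, contains the motif on both strands and counts once. Slc16a3 lies at chr10:106712078-106712327 on the plus strand, Ldha at chr1:106507842-106508091 on the plus strand and Ldhb at chr4:177177409-177177658 on the minus strand.
Slc16a3: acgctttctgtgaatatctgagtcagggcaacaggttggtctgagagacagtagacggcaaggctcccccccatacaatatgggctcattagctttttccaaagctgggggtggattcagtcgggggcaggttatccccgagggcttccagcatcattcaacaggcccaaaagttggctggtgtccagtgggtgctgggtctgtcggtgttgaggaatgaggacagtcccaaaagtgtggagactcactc
Ldha: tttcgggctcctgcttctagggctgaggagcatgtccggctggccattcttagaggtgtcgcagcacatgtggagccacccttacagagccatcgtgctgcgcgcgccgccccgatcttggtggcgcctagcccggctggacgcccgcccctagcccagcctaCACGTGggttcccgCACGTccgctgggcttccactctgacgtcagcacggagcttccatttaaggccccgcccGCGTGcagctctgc
Ldhb: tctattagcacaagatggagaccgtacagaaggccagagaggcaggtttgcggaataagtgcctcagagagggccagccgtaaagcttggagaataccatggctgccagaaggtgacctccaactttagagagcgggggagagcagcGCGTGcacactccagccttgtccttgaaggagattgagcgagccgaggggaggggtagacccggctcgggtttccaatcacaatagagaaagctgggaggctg
The Slc16a3 window had no match, that of Ldha had 3, beginning 87, 73 and 14 bases before the start, and that of Ldhb had 1, beginning 103 bases before it. At the floor of 31.0 the highest ratio in the module was that of Slc16a3, which had no match in this window. Ldha, with the most matches of the 3, had a log2 ratio of -0.36, or -0.0064 with quantile normalization. It lay among the 85 genes with a mean signal of 3500 or more, all below 0. Any link of the motif with the ratios was not tested. A match is a run of letters and not a shown binding site, and no match says only that the letters are missing from this window. Epas1, also without a match, ranked above Slc16a3 with the lower floor (2.60 against 1.66) and with the pseudocount of 16 (1.47 against 1.38).

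The kinases that switch off pyruvate dehydrogenase went separate ways. Pdk1, the isoform most tied to HIF, was higher in the Ndrg-1 clone at 307 against 208 (0.55), with its second probe set at 0.35. Pdk2 was at 37.6 against 60.2 (-0.68), close to the floor in both arrays. Pdk3, also described as a HIF target, was lower at 486 against 655 (-0.44), with its second probe set at -0.61. The log2 ratios of Pdk1 and Pdk2 lay 1.23 apart, and those of Pdk1 and Pdk3 0.99. Pdk4, the starvation-induced isoform from the list on pyruvate entry to mitochondria, was 2.63-fold higher at 142 against 53.7, with a second probe set at 0.35 or more.

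Hif1a and Egln1 had log2 ratios within 1 SD of the probe set disagreement, and Epas1 and Egln3 were dim. Hif1a, the oxygen-labile subunit of wide expression, had a signal of 1253 with Ndrg-1 and 1111 with vector (0.17). Epas1, its paralog, was at 52.0 in the Ndrg-1 clone and under the floor in the vector clone, at least 1.67-fold higher, or at a log2 ratio of 2.60 with the floor at 7.66. Its second probe set was under the floor in both arrays. Egln1, the main prolyl hydroxylase that marks HIF alpha for degradation, was at 685 against 598 (0.19). Egln3, a strongly HIF-induced hydroxylase, was at 26.1 and 10.9, both under the floor of 31.0. HIF alpha subunits are controlled mostly at the protein level, which these arrays do not measure.

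Among the 11 other HIF targets of the module above the floor, the collagen prolyl hydroxylases, the oxidoreductase Ero1a and the demethylase Kdm3a had the highest ratios. P4ha1, the catalytic subunit that hydroxylates procollagen, had a signal of 1344 with Ndrg-1 and 821 with vector (0.71), above 98.9% of the 3480 genes with a mean signal from 300 to 2000. Kdm3a, a histone demethylase that needs oxygen, was at 462 against 304 (0.60), above 98.0% of those genes. Ero1a, which oxidises disulfide isomerase in the endoplasmic reticulum, was at 727 against 514 (0.50; second probe set 0.30). P4ha2, the second collagen hydroxylase subunit, was at 835 against 611 (0.45; second probe set 0.60). Bnip3, a mitochondrial inducer of mitophagy, was at 1536 against 1195 (0.36). None of these reached 2-fold, and P4ha1, Kdm3a and Ero1a were beyond 2 SD of the probe set disagreement. Of all 38 genes 13 were beyond it, 7 higher and 6 lower, against 16.9% of all genes. The 13 include Epas1, Pfkfb4 and Aldoc, each at the floor in 1 array, where a difference follows from having passed. The share of all genes also counts genes at the floor in 1 array, and the 2 SD is pooled over dim and bright genes alike.

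The other targets were close to 0, or lower. Bnip3l, the paralog of Bnip3, had a log2 ratio of -0.10 (540 against 578), and its second probe set had 0.10. Higd1a, a respiratory chain modulator, was at 1804 against 1760 (0.03), but its dimmer probe set, at 138 against 63.1, was at 1.12, the widest split between probe sets in the module. Ankrd37 was near the floor at 41.5 against 34.3 (0.27). Mxi1, a MYC antagonist, was lower at 234 against 270 (-0.21), with a second probe set at -0.91. Ca9, the extracellular carbonic anhydrase that serves as a common hypoxia marker, was dim and lower in the Ndrg-1 clone at 44.5 against 76.9 (-0.79). Its relative Ca12 was at 4.69 and 2.33, under the floor.

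**Figure D3:**
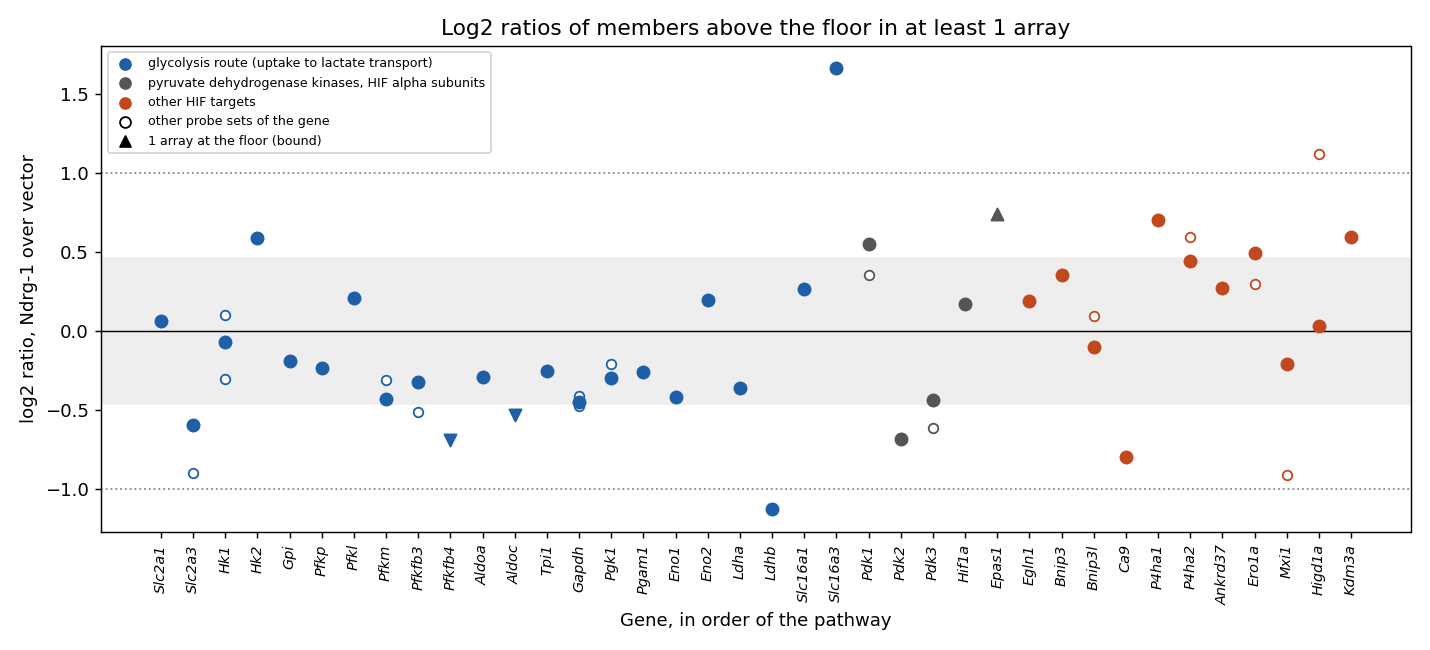
Log2 ratio (Ndrg-1 over vector) of each of the 38 genes above the floor in at least 1 array, in order of the pathway, with filled symbols for the representing probe set and open circles for other probe sets. Triangles are bounds, the grey band is 2 SD of the disagreement between probe sets (0.46 either way) and dotted lines mark 2-fold. Slc16a3 at 1.66 and Ldhb at -1.13 lie beyond the dotted lines, and Hk2, Pdk1, Epas1, P4ha1, Ero1a and Kdm3a lie between the band and the upper line, and Slc2a3, Pfkfb4, Aldoc, Pdk2 and Ca9 between the band and the lower one.

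Promoters of 3 targets with higher signals are shown in the same way for comparison with those of the exit genes, again with motif matches in capitals. P4ha1 lies at chr20:27844796-27845045 on the plus strand, P4ha2 at chr10:38743644-38743893 on the plus strand and Bnip3 at chr1:203154963-203155212 on the minus strand.
P4ha1: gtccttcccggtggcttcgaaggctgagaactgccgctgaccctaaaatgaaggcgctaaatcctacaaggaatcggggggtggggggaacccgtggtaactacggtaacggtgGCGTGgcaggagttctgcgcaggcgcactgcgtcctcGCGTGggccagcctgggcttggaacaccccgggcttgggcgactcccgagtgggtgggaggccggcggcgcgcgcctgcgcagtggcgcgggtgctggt
P4ha2: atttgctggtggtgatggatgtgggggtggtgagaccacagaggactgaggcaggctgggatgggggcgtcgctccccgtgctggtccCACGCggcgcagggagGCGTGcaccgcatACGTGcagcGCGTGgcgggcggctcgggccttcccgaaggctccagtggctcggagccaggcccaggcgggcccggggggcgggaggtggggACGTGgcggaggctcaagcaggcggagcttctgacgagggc
Bnip3: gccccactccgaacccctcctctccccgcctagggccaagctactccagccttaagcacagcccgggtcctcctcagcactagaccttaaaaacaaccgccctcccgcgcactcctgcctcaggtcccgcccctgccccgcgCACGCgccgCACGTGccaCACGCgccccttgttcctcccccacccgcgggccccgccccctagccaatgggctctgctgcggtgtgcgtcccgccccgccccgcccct
P4ha1 had 2 matches, beginning 136 and 99 bases before the start, P4ha2 had 5, the nearest 41 bases before it, and Bnip3 had 3, of which the middle one is the palindrome. Over the full RefSeq windows, which add 50 bases after the start, 10 of 11 other HIF targets with an entry held a match (90.9%), as did 16 of 21 genes of the glycolysis route (76.2%). The motif is common: by gene, 65.4% of 7795 genes above the floor with an entry held it, as did 44.6% of all 27457 genes with an entry. By window, 41.6% of all 33469 held it. Route genes without a match were Slc16a3, Hk2, Tpi1, Pfkfb4 and Pkm, and Egln3 was the target without one. Ero1a, Bnip3l, Slc2a3 and Pgk1 had no entry. Kdm3a (log2 ratio 0.60), whose promoter is not shown, had 0 matches at its first start and 1 at its second. Ca9 (-0.79) and Mxi1 (-0.21), both lower in the Ndrg-1 clone, had 1 match each. Any link of the motif with higher signals was not tested.

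Set side by side, the glycolysis route and the other HIF targets had medians on either side of 0. Of the 22 route genes, 16 had a log2 ratio below 0, against 49.6% of all genes, and the median was -0.28. Of the 11 other targets above the floor, 8 had a ratio above 0 and the median was 0.27, a difference of 0.55 between the medians that was 0.30 with quantile normalization. Without the genes at the floor in 1 array, 14 of 20 route genes were below 0, with a median of -0.26, and the 11 targets were the same. Among genes with a mean signal from 300 to 2000, a range chosen after the values were seen, 3480 genes had a median of 0.0063 and 48.9% of them were below 0. There, 4 of 8 route genes were below 0 with a median of -0.0038, and 7 of 8 other targets were above 0 with a median of 0.40. Within that range the route median thus lay near 0 and that of the targets above it. Outside it, 2 of 4 route genes under 100 and 2 of 2 from 100 to 300 were below 0. So were Gpi and all 7 at 3500 or more. Relative to the median of all genes, the route median ran from -0.28 to -0.01 and that of the targets from 0.18 to 0.36 over the 10 alternative settings. Scaling to the hybridisation spikes moved the median gene to 0.53 and the route median to 0.27, and scaling to the poly-A spikes moved the median gene to -0.21. No test of the difference was possible with 1 array per group, and the genes were grouped with earlier results of these arrays known.

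**Figure D4:**
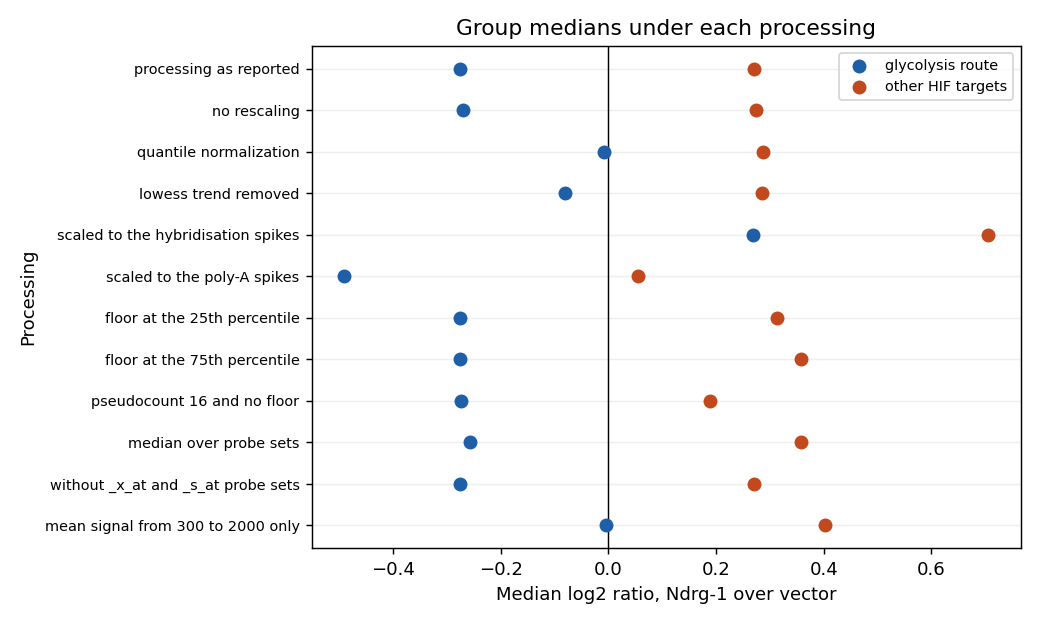
Median log2 ratio (Ndrg-1 over vector, horizontal axis) of the glycolysis route (blue) and of other HIF targets (red) under each processing, 1 per line. The red point lies right of the blue one on each line, and the route median lies above 0 with scaling to the hybridisation spikes (0.27), which moved the median gene to 0.53.

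Paralogs of 1 step lay on opposite sides of 0 at some steps and on the same side at others. Aldoa and Aldoc, Pfkfb3 and Pfkfb4, and Ldha and Ldhb were all below 0, Aldoc and Pfkfb4 as bounds. At hexokinase (Hk2 above, Hk1 below), phosphofructokinase (Pfkl above, Pfkp and Pfkm below), enolase (Eno2 above, Eno1 below) and glucose uptake (Slc2a1 above, Slc2a3 below), the log2 ratios differed by 0.44 to 0.66. Of these genes, Slc2a1 (0.06), Hk1 (-0.07), Pfkl (0.21) and Eno2 (0.20) were within 1 SD of the probe set disagreement, 0.23. The sides hold relative to the median gene. Scaling to the poly-A spikes turned Slc2a1, Pfkl and Eno2 below 0. Scaling to the hybridisation spikes turned Hk1, Pfkp, Pfkm and Eno1 above it. With quantile normalization Eno1 was at -0.0092 and Eno2 at 0.18, closer together than the 0.61 as processed here. The lactate transporters, both above 0, lay 1.40 apart. Of 15 further probe sets above the floor, from 13 genes, 13 had the sign of the representing probe set, and the exceptions were those of Hk1 and Bnip3l.

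Genes around the module were read from lists drawn up with earlier results of these arrays known. The 28 further HIF targets above the floor included Ndrg1, the gene of the insert, at 0.34 on its brighter probe set. Of the 28, 15 were above 0 and 13 below, with a median of 0.03. At least 2-fold higher were 3 and 0 were lower, against 1.62% and 1.5% of all genes. These were Vldlr, a lipoprotein receptor (750 against 222, 3.36-fold, other probe sets at 0.91, 1.60 and 1.56), the vasodilator peptide Adm (441 against 144, 3.05-fold) and the heme oxygenase Hmox1 (427 against 189, 2.25-fold). Of 11 genes of the HIF machinery, 0 reached 2-fold, from Vhl, the ubiquitin ligase subunit that binds hydroxylated HIF (776 against 1040, -0.43), to the coactivator Crebbp (276 against 223, 0.31, other probe sets at 0.22 and -0.12).

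Side branches of glycolysis differed in both directions. Their counts below 0 stand beside 49.6% of all genes. The side-branch genes named below had signals under 2000 in both arrays. By mean signal, the share below 0 was 48.9% under 100, 46.1% from 100 to 300 and 48.9% from 300 to 2000. It was 89.7% of the 263 genes from 2000 to 3500 and all 85 genes at 3500 or more. How the unnamed genes of the branches spread over these ranges is not given here. In the pentose phosphate pathway, which draws off hexose phosphate to make NADPH and ribose, 6 of 7 genes were below 0 with a median of -0.36 and 0 reached 2-fold, from H6pd (-0.66) to Pgls (0.21). All 8 genes of the NADH shuttles and glycerol branch were below 0 (median -0.18, from Gpd1l at -0.64 to Slc25a11 at -0.01), and 0 reached 2-fold. Of 10 glycogen and hexose entry genes 1 was 2-fold higher, the glycogen phosphorylase Pygl, at 80.2 in the Ndrg-1 clone and under the floor in the vector clone (at least 2.58-fold). Pdk4 was the 1 of 10 genes for pyruvate entry to mitochondria that reached 2-fold (median -0.02). In the serine branch 4 of 5 genes were above 0 (median 0.12, from Shmt1 at -0.21 to Phgdh at 0.45). Both gluconeogenesis genes above the floor, Pck2 (-0.53, second probe set 0.07) and G6pc3 (-0.07), were below 0. Of 11 other isoenzymes and carriers 0 reached 2-fold, from Emb, a chaperone of lactate transporters (1401 against 1985, -0.51), to Slc16a7 (0.26).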

How the data were processed

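The 2 arrays hold 31099 probe sets each. Each deposited value is an intensity (a probe set signal on a linear scale). The submitters' processing notes name GCOS 1.3 as the software. How probes were summarised and to what level arrays were scaled is not given in the sources used here. The mean intensity without the lowest and highest 2% was 150.0 in both arrays. Of the probe sets, 20832 carried 1 gene symbol, 436 several and 9831 none, and 20764 matched a RefSeq gene (GRCr8) by gene ID. Control probe sets annotated to 1 gene counted for that gene.

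From these values were computed the rescaling, the floor at the 50th percentile, log2 ratios, counts at 2-fold and medians, using pandas 2.3.3 and numpy 2.4.6 under Python 3.11.15, and statsmodels 0.14.6 for the lowess trend. The steps were tested on simulated data with a constant shift, noise of equal size at every signal and changes only in genes above the median signal. That simulation held no lean with signal and no changed genes below the median signal, so it says nothing on these. All 41 listed genes are described, and from other lists each gene at 2-fold or, where none was, the highest and lowest. The members and lists were chosen with earlier results of these data known. The number of arrays limits the precision. The 10 alternatives are in the closing section.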

Additional observations from a re-analysis of the deposited data

How the results depend on the processing

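No paired analysis was possible because each group is 1 array. Slc16a3 was the 1 higher and Ldhb the 1 lower gene at 2-fold without rescaling, with quantile normalization, with a lowess trend removed, with the median over probe sets and without probe sets ending in _x_at or _s_at. With the floor at the 25th percentile 3 genes were higher (Slc16a3, Epas1 and Egln3) and 3 lower (Ldhb, Aldoc and Pfkfb4). At the 75th percentile 0 were higher, since Slc16a3 lay under that floor of 172, and 1 lower. A pseudocount of 16 gave 2 higher (Slc16a3, Epas1) and 2 lower (Ldhb, Aldoc). Scaled to the hybridisation spikes 7 were higher (Slc16a3, Epas1, Hk2, Pdk1, P4ha1, Ero1a and Kdm3a) and 0 lower, with 6 of 39 below 0 and medians of 0.35 for all members, 0.27 for the route and 0.71 for the other targets. Over all genes that scaling gave 732 higher and 43 lower, and scaling to the poly-A spikes gave 101 higher and 240 lower, with 2 members lower (Ldhb, Ca9). Quantile normalization placed the median of all members at 0.092 and that of the route at -0.0078, a difference of 0.30 from the other targets. In the signal range from 300 to 2000, chosen after seeing the data, the members' median was 0.18 and the route's -0.0038. A lowess trend removed gave a route median of -0.08. The cause was not tested. Log2 ratios of single members changed sign in 15 of 38 cases with the hybridisation spikes, 6 with the poly-A spikes and 4 with quantile normalization. Signals near the floor, such as those of Slc16a3 in the vector array, Ankrd37 and Pdk2, limit what their ratios show.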
